A study of Homo sapiens with 12 samples.

Results

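Integrins are the cell's receptors for the extracellular matrix, and laminins are the matrix proteins of the basement membrane on which epithelial cells sit. The genes described here are those whose symbol on the array is ITGA or ITGB, or LAMA, LAMB or LAMC, followed by a number or, for integrins, by one of the letters D, E, L, M, V and X. By this rule there were 35 genes, 25 integrin genes and 10 laminin chain genes, of 19775 genes with a probe set paired with 1 gene symbol. Their messenger RNA was followed under erlotinib, an inhibitor of the EGFR kinase, in the established lines PC9 and HCC827, both derived from human lung adenocarcinomas with an activating EGFR mutation. The integrin gene ITGB6, whose 4 probe sets are each shared with a second symbol, and the laminin gene LAMA3 were not analysed here.

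RNA of each line was hybridised to one-colour Affymetrix HG-U133 Plus 2.0 arrays after 8 days in DMSO, the solvent, or in 2 uM erlotinib, with 3 arrays in each of the 4 groups. All cells grew in RPMI medium with 10% fetal bovine serum, and medium and agent were renewed once on the way. DMSO cells were plated at lower number in dishes and erlotinib cells at higher number in flasks, per the treatment protocol, whereas the series text gives flasks for all, so plating cannot be told apart from the drug. The labels do not state whether the replicates were grown as separate cultures, so p-values here measure only the spread between these samples, which may be technical.

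An integrin is a pair of 1 alpha and 1 beta chain. The beta chain ITGB1 pairs with many alpha chains, ITGA6 also pairs with ITGB4 to form the laminin receptor of the hemidesmosome, and ITGAV pairs with several beta chains to bind ligands that carry an RGD motif, among them fibronectin, vitronectin and the latent form of TGF-beta. A laminin is a trimer of 1 alpha, 1 beta and 1 gamma chain, secreted by the cells that rest on it, and in epithelia it is read mainly by ITGA3 and ITGA6 receptors.

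For 4 members that stood lower in both lines or higher in PC9 under the drug, the 250 bases upstream of the first RefSeq start (GRCh38.p14) are printed to show what lies before them, 5′ to 3′ on the strand of the gene, with GC boxes (GGGCGG or its reverse complement) in capitals. The windows are chr5:52989102-52989351 on the plus strand for ITGA2, chr2:172427086-172427335 on the plus strand for ITGA6, chr3:49133051-49133300 on the minus strand for LAMB2 and chr1:183023170-183023419 on the plus strand for LAMC1.
ITGA2: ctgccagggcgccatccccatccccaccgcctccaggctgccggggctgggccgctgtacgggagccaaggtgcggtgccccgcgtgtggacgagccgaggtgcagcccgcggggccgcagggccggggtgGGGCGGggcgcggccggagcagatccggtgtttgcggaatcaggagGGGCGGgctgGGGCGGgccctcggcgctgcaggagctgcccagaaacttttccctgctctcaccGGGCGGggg
ITGA6: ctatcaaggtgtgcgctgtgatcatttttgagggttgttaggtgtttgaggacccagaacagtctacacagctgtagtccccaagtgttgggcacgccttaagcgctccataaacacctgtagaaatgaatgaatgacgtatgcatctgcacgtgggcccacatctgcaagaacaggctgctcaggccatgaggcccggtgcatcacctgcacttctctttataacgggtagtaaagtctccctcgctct
LAMB2: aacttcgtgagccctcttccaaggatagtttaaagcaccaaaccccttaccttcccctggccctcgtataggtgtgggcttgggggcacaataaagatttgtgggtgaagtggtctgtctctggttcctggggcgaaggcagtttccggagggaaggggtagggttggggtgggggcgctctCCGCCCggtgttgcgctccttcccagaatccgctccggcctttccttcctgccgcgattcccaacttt
LAMC1: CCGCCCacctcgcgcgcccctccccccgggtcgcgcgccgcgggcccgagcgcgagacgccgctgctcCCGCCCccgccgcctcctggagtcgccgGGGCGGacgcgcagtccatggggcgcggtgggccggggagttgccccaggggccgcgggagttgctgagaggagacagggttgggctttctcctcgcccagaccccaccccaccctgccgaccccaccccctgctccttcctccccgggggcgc
The ITGA2 window holds 4 GC boxes, the LAMC1 window 3, the LAMB2 window 1 and this ITGA6 window 0, while a second ITGA6 window, of a start further into the gene and not printed, holds 3. RefSeq windows were found for 24 of the 35 members, 31 windows in all, and 16 of these held a GC box, against 42.6% of all 35116 windows in the table. The AP-1 motif TGANTCA was found in 1 member window, against 6.57% of all windows, and the TEAD motif GGAATG in 4, against 11.9%. Both strands were searched, no motif contains another, and a match is only a match of letters.

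The values are MAS5 signal intensities, on a linear scale with the same trimmed mean of 150 on every array. Median signals of the arrays ran from 11.1 to 14.5, the correlation across genes between replicates was 0.9929 to 0.9973, and the number of arrays limits the precision of every value. The 3′ to 5′ signal ratio of actin, a measure of RNA integrity and amplification, was 2.18 ± 0.15 and 2.22 ± 0.27 (SD, n = 3) in PC9 with DMSO and erlotinib, 2.17 ± 0.06 in HCC827 with DMSO and 3.03 ± 0.60 in HCC827 with erlotinib. All 12 epithelial carcinoma markers stood above the table median of 13 in every group. In a culture, fewer cells with a gene on and less RNA per cell cannot be told apart.

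Of the 35 members, 24 passed the filter, which asked for a group mean at or above the table median in at least 1 group, and 16 of these were integrins and 8 laminins. The other 11 were the integrins ITGAX, ITGB7, ITGA11, ITGA10, ITGA2B, ITGA8, ITGA9, ITGAL and ITGAD and the laminins LAMB4 and LAMA1, with signals from 0.2 to 14.3 on any array. Next to the limit, ITGA1 and ITGA7 passed with highest group means of 15.6 and 14.0, and ITGAX and ITGB7, at 12.9 and 12.1, did not. ITGAM passed through PC9 erlotinib alone, ITGA4 and ITGA7 through HCC827 DMSO alone, ITGA1 through PC9 DMSO alone and ITGB3 through the erlotinib groups alone. For ITGAM, ITGA4, ITGA1 and ITGB3 the filter itself thus favours a difference between the treatments.

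A gene was called when limma's adjusted p over all 13165 genes tested was under 0.05. Changes are differences of log2(signal + 8), erlotinib minus DMSO, with their standard error, and this scale understates changes of dim genes. In PC9, 17 of the 24 members were called, 9 higher and 8 lower, which is 70.8% against a background of 64.7% of all genes tested (36.4% higher and 28.3% lower). In HCC827, 11 were called, 6 higher and 5 lower, which is 45.8% against 51.8% (32.3% higher and 19.5% lower). The members called in both lines were 9, with 37.3% of all genes tested called in both. Calls of at least 1.5-fold and of at least 2-fold numbered 10 and 7 in PC9, where 30.3% and 13.0% of all genes had them, and 6 and 2 in HCC827, where 19.2% and 7.24% had them. Treated and untreated arrays were apart, without overlap, for 16 members in PC9 and 11 in HCC827, against 64.9% and 62.2% of all genes. The median change of the members was 0.03 in PC9 and -0.06 in HCC827, beside 0.05 and 0.07 over all genes. By share called and by median the family thus stood near the background in both lines, and the description below rests on single genes. Those called with a change of at least 1.5-fold in a line are given with the signal on every array.

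**Figure D1:**
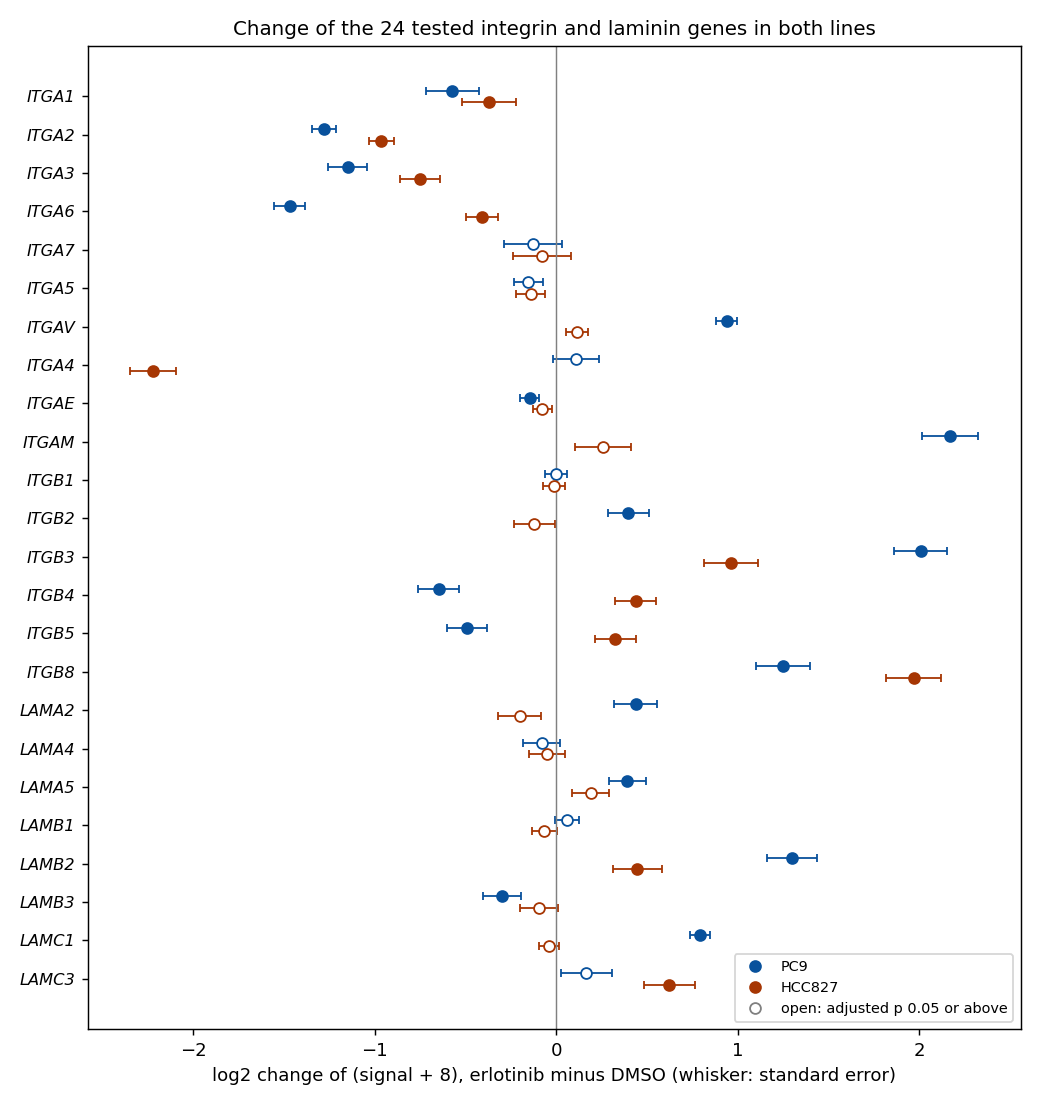
Log2 change of (signal + 8) in erlotinib against DMSO for the 24 tested integrin and laminin genes, grouped by role, in PC9 (blue) and HCC827 (brown), with standard errors and open symbols for genes not called. ITGA2, ITGA3 and ITGA6 lie left of 0 in both lines, ITGB3, ITGB8 and LAMB2 right of 0 in both, and ITGB4 and ITGB5 on opposite sides.

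Of the 3 tested alpha chains grouped here as laminin receptors, ITGA3, ITGA6 and ITGA7, 2 fell with the drug in both lines. ITGA6, the alpha chain of the hemidesmosomal receptor, gave signals of 2226, 2556 and 3046 in PC9 DMSO and 966, 841 and 985 in PC9 erlotinib, and 2293, 2346 and 2496 in HCC827 DMSO against 1782, 1738 and 1854 in HCC827 erlotinib. Every erlotinib array lay below every DMSO array of its line, and the lines overlapped in DMSO but not in erlotinib. ITGA6 fell by 1.47 ± 0.09 in PC9 (adjusted p = 4.09e-10) and fell by 0.41 ± 0.09 in HCC827 (adjusted p = 0.000999), and the interaction of line and drug was -1.06 ± 0.12 (adjusted p = 3.74e-06). Its other probe set, with mean signals of 712 ± 35.2 and 98.6 ± 13.2 in PC9 and 390.0 ± 20.4 and 163 ± 21.4 in HCC827 (SD, n = 3, DMSO and erlotinib), gave larger changes of -2.76 and -1.22. With the mean of both probe sets the HCC827 change was -0.82.

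ITGA3, which pairs with ITGB1 to bind the laminins of epithelial basement membranes, gave signals of 335, 276 and 322 in PC9 DMSO, 117, 159 and 132 in PC9 erlotinib, 474, 524 and 421 in HCC827 DMSO and 263, 276 and 291 in HCC827 erlotinib. The treatments did not overlap in either line, and HCC827 stood higher than PC9 under each treatment. ITGA3 fell by 1.15 ± 0.11 in PC9 (adjusted p = 1.09e-07) and fell by 0.75 ± 0.11 in HCC827 (adjusted p = 2.59e-05). The interaction was -0.40 ± 0.15 (adjusted p = 0.0436), and it was not called when any 1 of 8 arrays was left out. It was also lost with 32 in place of 8 (-0.33) and with the actin ratio as a covariate (-0.43). Omission of the filter, untrended variances and a block for replicate number lost it too (-0.40 each). Without HCC827 erlotinib replicates 2 and 3 it was -0.33. ITGA7, the laminin receptor chain of muscle, was dim, with signals from 0.7 to 17.3 over the 12 arrays, and was not called for the drug in either line.

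Of the 4 members that bind collagen, ITGA10 and ITGA11 did not pass the filter, and the 2 tested ones fell in both lines. ITGA2, the alpha chain of the collagen receptor of epithelia and platelets, gave signals of 564, 665 and 644 in PC9 DMSO, 263, 244 and 249.9 in PC9 erlotinib, 958, 950.0 and 1021 in HCC827 DMSO and 493, 500.0 and 498 in HCC827 erlotinib. In each line the lowest DMSO array exceeded the highest erlotinib array by a wide margin, and the treated HCC827 arrays still lay below the untreated PC9 arrays. ITGA2 fell by 1.28 ± 0.07 in PC9 (adjusted p = 1.2e-10) and fell by 0.96 ± 0.07 in HCC827 (adjusted p = 8.86e-09), with an interaction of -0.31 ± 0.10 (adjusted p = 0.0151) that was not called with the mean of probe sets (-0.23), the actin ratio as a covariate (-0.26) or without HCC827 erlotinib replicates 2 and 3 (-0.30). ITGA1, the other collagen receptor chain, lies next to ITGA2 on chromosome 5 with 0 protein-coding genes wholly between them in RefSeq. It was near the table median, at 12.5 to 21.3 in PC9 DMSO and 7.0 to 8.3 in PC9 erlotinib, and fell by 0.57 ± 0.15 (adjusted p = 0.00294). In HCC827 it went from 9.9 to 11 down to 4.9 to 8.4, all below the table median, and fell by 0.37 ± 0.15 (adjusted p = 0.0458). The ITGA1 call in PC9 was lost with the mean of its probe sets (-0.21), and the one in HCC827 was lost in 6 settings and without any 1 of 8 arrays. In both lines 4 members in all were called lower, ITGA1, ITGA2, ITGA3 and ITGA6, and 11.6% of all genes tested were.

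**Figure D2:**
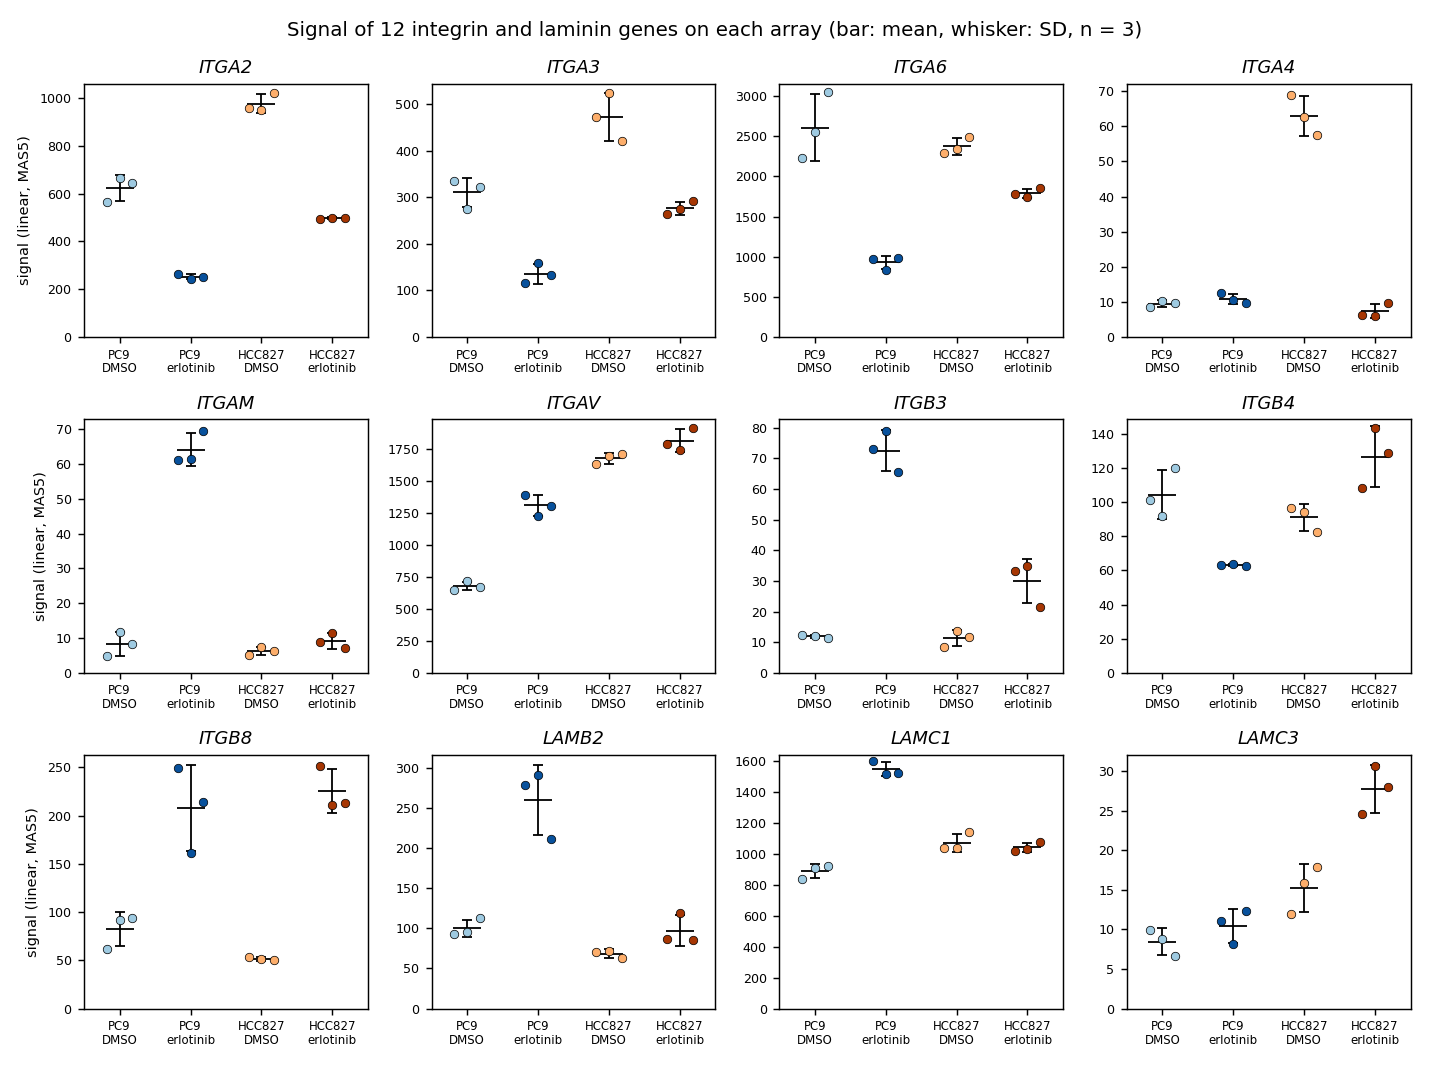
Linear MAS5 signal of 12 integrin and laminin genes on each array (points), with the mean and SD of the 3 arrays of PC9 DMSO, PC9 erlotinib, HCC827 DMSO and HCC827 erlotinib. ITGA2 and ITGA3 stand lower in both treated groups, ITGB8 stands higher in both, ITGAM stands high in PC9 erlotinib alone and ITGA4 in HCC827 DMSO alone.

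Of the alpha chains that bind RGD ligands, ITGAV rose in PC9. ITGAV gave signals of 650.1, 714 and 668 in PC9 DMSO, 1392, 1226 and 1304 in PC9 erlotinib, 1629, 1692 and 1705 in HCC827 DMSO and 1785, 1743 and 1915 in HCC827 erlotinib. Untreated PC9 stood lowest of the 4 groups, and treated PC9 still lay below untreated HCC827. The change was 0.94 ± 0.06 in PC9 (adjusted p = 7.91e-10) and 0.11 ± 0.06 in HCC827 (adjusted p = 0.119), with an interaction of 0.83 ± 0.08 (adjusted p = 8.08e-07). ITGA5, the fibronectin receptor chain, was not called in either line, with changes of -0.15 ± 0.08 and -0.14 ± 0.08 and arrays that overlapped between the treatments. In PC9 it was called lower with median centring (-0.30) and without DMSO replicate 2 or erlotinib replicate 2 (-0.22 each).

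ITGA4, a chain that binds fibronectin and the endothelial adhesion molecule VCAM1 and is best known from leukocytes, gave signals of 8.6, 10.3 and 9.7 in PC9 DMSO, 12.5, 10.6 and 9.6 in PC9 erlotinib, 69.0, 62.6 and 57.6 in HCC827 DMSO and 6.4, 5.9 and 9.7 in HCC827 erlotinib. Only the untreated HCC827 arrays stood clear of the table median, and the other 9 arrays lay below it. ITGA4 fell by 2.22 ± 0.13 in HCC827 (adjusted p = 6.03e-10), the difference in PC9 was 0.11 ± 0.13 (adjusted p = 0.477), and the interaction was 2.32 ± 0.18 (adjusted p = 3.58e-08). With the mean of its 4 probe sets, 3 of which were at 5.23 or less in every group mean, the HCC827 change was -0.65, and with 32 in place of 8 it was -1.27.

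ITGAM, the alpha chain of the myeloid complement receptor CR3, gave signals of 4.7, 11.8 and 8.4 in PC9 DMSO, 61.2, 61.5 and 69.6 in PC9 erlotinib, 5.1, 7.5 and 6.3 in HCC827 DMSO and 8.9, 11.5 and 7.1 in HCC827 erlotinib. The treated PC9 arrays stood apart from the other 9, all of which were below the table median. ITGAM rose by 2.17 ± 0.16 in PC9 (adjusted p = 4e-09), the difference in HCC827 was 0.26 ± 0.16 (adjusted p = 0.177), and the interaction was 1.91 ± 0.22 (adjusted p = 3.52e-06). The other ITGAM probe set did not pass the filter, with means of 5.47 ± 2.02 and 1.47 ± 0.15 in PC9 DMSO and erlotinib (SD, n = 3), and with the mean of both probe sets the PC9 change was 0.83. ITGAX and ITGAD, its neighbours on chromosome 16 in RefSeq, stayed under the filter in every group. Of 10 leukocyte markers measured, 0 in PC9 DMSO and 1 in PC9 erlotinib, CSF1R, stood above the table median, and their summed signal was 39 to 55 and 46 to 59.

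ITGAE, the alpha chain of a receptor for E-cadherin on intraepithelial lymphocytes, was bright in both lines, from 968 to 1383 over all arrays. It fell by 0.15 ± 0.05 in PC9 (adjusted p = 0.0238) and differed by -0.08 ± 0.05 in HCC827 (adjusted p = 0.238). The PC9 call was lost with quantile normalization (-0.07) and without DMSO replicate 3 (-0.13) or erlotinib replicate 1 (-0.11). Untrended variances and a fit of the 6 PC9 arrays alone lost it too (-0.15 each). ITGB2, the beta chain that ITGAM needs at the surface, went from 18.3 to 21.9 in PC9 DMSO up to 27.6 to 32 in PC9 erlotinib. ITGB2 rose by 0.40 ± 0.11 in PC9 (adjusted p = 0.00575), a call lost with quantile normalization (0.19), median centring (0.25) and the mean of probe sets (0.12). Its change in HCC827 was -0.12 ± 0.11 (adjusted p = 0.388), from signals of 84.0 to 110.4 and 83.8 to 95.7.

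The beta chains moved in different directions. ITGB3, the partner of ITGAV in the classical vitronectin receptor, gave signals of 12.5, 11.9 and 11.5 in PC9 DMSO, 73.2, 78.8 and 65.5 in PC9 erlotinib, 8.5, 13.8 and 11.7 in HCC827 DMSO and 33.2, 35.0 and 21.6 in HCC827 erlotinib. The DMSO arrays of both lines lay near or below the table median, and every treated array lay above every untreated one. ITGB3 rose by 2.01 ± 0.15 in PC9 (adjusted p = 5.01e-09) and by 0.96 ± 0.15 in HCC827 (adjusted p = 4.47e-05), with an interaction of 1.05 ± 0.21 (adjusted p = 0.000697). Of its 7 probe sets 2 passed, and both were called higher in both lines, whereas the mean of all 7 gave changes of 0.69 and 0.35. Of 7 platelet and megakaryocyte markers, a cell type known for ITGB3 and ITGA2B, the summed signal went from 36 to 54 up to 771 to 918 in PC9 and was 21 to 34 and 23 to 32 in HCC827. In PC9 1 marker, the glycoprotein GP9, had a DMSO mean above the table median, and in erlotinib 2 did, GP9 and the chemokine PPBP, which was 7.0 to 11.8 on the DMSO arrays and 732 to 888 on the erlotinib arrays. PPBP alone made up most of the PC9 erlotinib sum, and GP9 was not called in either line. The markers other than GP9 and PPBP stood below the table median in every group. Among them, without overlap in PC9, GP1BA stood lower and PF4 higher in erlotinib. ITGA2B stayed under the filter in every group. The part of platelet and megakaryocyte markers in the ITGB3 rise was not tested.

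ITGB8, which with ITGAV holds latent TGF-beta at the cell surface, gave signals of 62.2, 91.5 and 94.3 in PC9 DMSO, 249.2, 161 and 214 in PC9 erlotinib, 53.3, 51.1 and 50 in HCC827 DMSO and 252, 211 and 213 in HCC827 erlotinib. The treated arrays of the lines overlapped each other and lay above all untreated ones. ITGB8 rose by 1.25 ± 0.15 in PC9 (adjusted p = 1.95e-06) and by 1.97 ± 0.15 in HCC827 (adjusted p = 2.08e-08). The interaction was -0.72 ± 0.21 (adjusted p = 0.0124), and it was not called with the mean of probe sets (-0.25) or the actin ratio as a covariate (-0.62). Of 4 probe sets that passed, 3 were called higher in PC9 and 4 in HCC827, and the mean of all probe sets gave changes of 0.53 and 0.78.

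ITGB4, the beta chain of the hemidesmosome, gave signals of 101, 91.8 and 119.9 in PC9 DMSO, 63.1, 64.0 and 62.7 in PC9 erlotinib, 96.5, 94.2 and 82.2 in HCC827 DMSO and 108, 143 and 129 in HCC827 erlotinib. The treated arrays lay below the untreated ones in PC9 and above them in HCC827. ITGB4 fell by 0.65 ± 0.11 in PC9 (adjusted p = 0.000114) and rose by 0.44 ± 0.11 in HCC827 (adjusted p = 0.0044), with an interaction of -1.09 ± 0.16 (adjusted p = 5.24e-05). The fall was called on 3 of 4 probe sets that passed, and its size was -0.38 with the mean of probe sets. The HCC827 rise was called on 1 of 4, the mean of probe sets gave -0.0025, and the change was 0.25 (adjusted p = 0.276) with the actin ratio as a covariate and 0.23 (adjusted p = 0.264) without HCC827 erlotinib replicates 2 and 3.

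ITGB5, another partner of ITGAV, went from 1113 to 1319.7 in PC9 DMSO down to 819.7 to 913 in PC9 erlotinib, without overlap. It fell by 0.49 ± 0.11 there (adjusted p = 0.00111) on 4 of 4 probe sets. In HCC827 it was 502 to 584 in DMSO and 532 to 781 in erlotinib, where the lowest treated array lay within the untreated range, and it rose by 0.33 ± 0.11 (adjusted p = 0.0227). That rise was lost with median centring (0.25), with the actin ratio as a covariate (0.08) and without HCC827 erlotinib replicates 2 and 3 (-0.015). It was also lost with untrended variances (0.33, adjusted p = 0.0507) and without DMSO replicate 1 (0.28) or 3 (0.32) or erlotinib replicate 2 (0.22) or 3 (0.26), and was 0.50 without erlotinib replicate 1. The interaction was -0.82 ± 0.16 (adjusted p = 0.000577). ITGB4 and ITGB5 were the 2 members called in opposite directions, and 5.39% of all genes tested were.

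ITGB1, the common beta chain, was bright on all arrays, from 2719.9 to 3900.3, and was not called on the probe set used here, with changes of 0.00 ± 0.06 in PC9 and -0.01 ± 0.06 in HCC827. Its sign had no settled direction under the other settings. Of 6 probe sets of ITGB1 that passed, 2 were called higher in PC9 and 1 was called lower in HCC827. A single probe set was in both counts, at 0.30 ± 0.09 (adjusted p = 0.0062) and -0.29 ± 0.09 (adjusted p = 0.0112). Over all members with 2 or more probe sets that passed, 13 genes, 0 had probe sets called in opposite directions within a line.

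**Figure D3:**
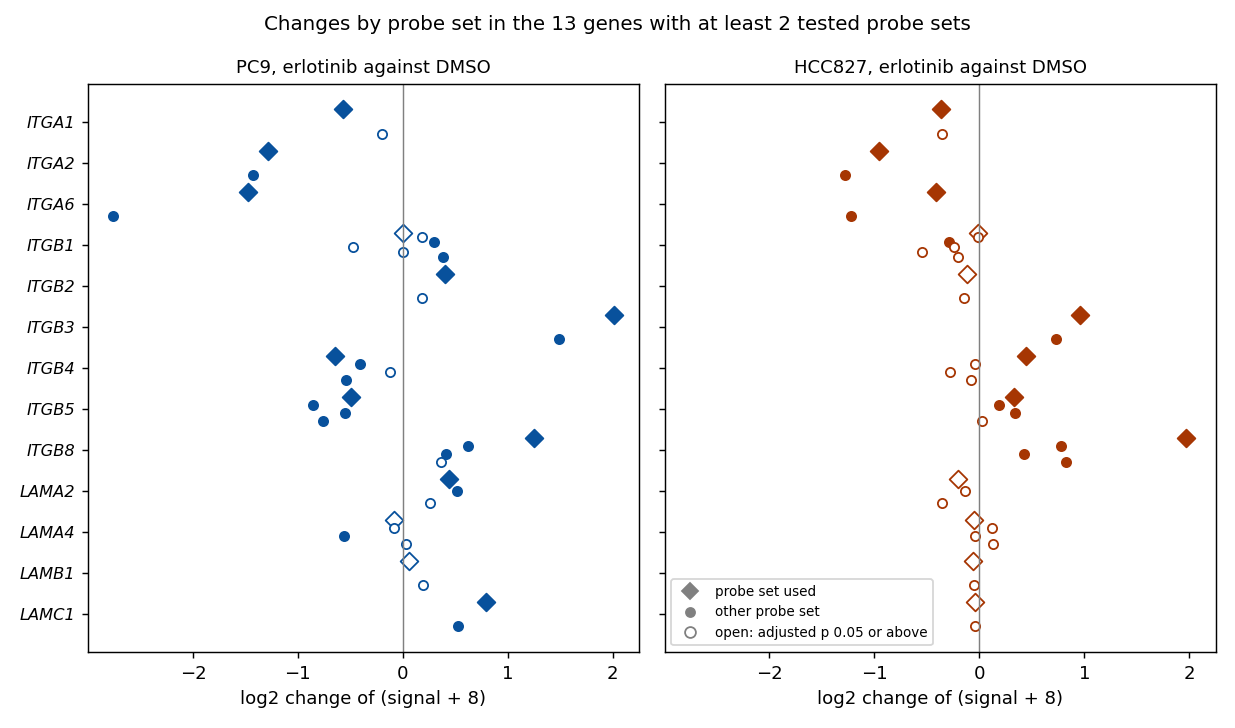
Log2 change of (signal + 8) for each tested probe set of the 13 members with at least 2, in PC9 (left) and HCC827 (right), diamonds for the probe set used and open symbols for those not called. Both ITGA6 probe sets lie left of 0 in both lines, and the ITGB1 probe set used here lies at 0.

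Among the laminin chains, 4 of 8 tested were called higher and 1 lower in PC9, and 2 were called higher and 0 lower in HCC827 by limma. These counts stand beside 36.4% higher and 28.3% lower of all genes tested in PC9 and 32.3% and 19.5% in HCC827. LAMB2, a beta chain of basement membranes of kidney, muscle and synapse, gave signals of 92.7, 95.7 and 112 in PC9 DMSO, 278, 291 and 211 in PC9 erlotinib, 70.8, 72.3 and 62.5 in HCC827 DMSO and 87.3, 119.2 and 85.2 in HCC827 erlotinib. Treated arrays lay above untreated ones in both lines, far above in PC9 and narrowly in HCC827. LAMB2 rose by 1.30 ± 0.14 in PC9 (adjusted p = 3.65e-07) and by 0.45 ± 0.14 in HCC827 (adjusted p = 0.0115), with an interaction of 0.85 ± 0.19 (adjusted p = 0.0019). The HCC827 call was lost with the actin ratio as a covariate (0.36), without HCC827 erlotinib replicates 2 and 3 (0.32), without DMSO replicate 3 (0.39) and without erlotinib replicate 2 (0.30). With ITGB3 and ITGB8 it was 1 of 3 members called higher in both lines, and 20.3% of all genes tested were.

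LAMC1, the gamma chain of most laminins, gave signals of 839.6, 909 and 922 in PC9 DMSO, 1599, 1519 and 1522 in PC9 erlotinib, 1038, 1039 and 1139.6 in HCC827 DMSO and 1020.5, 1029.9 and 1076 in HCC827 erlotinib. The treated PC9 arrays stood above all others, and the treatments overlapped in HCC827. LAMC1 rose by 0.79 ± 0.06 in PC9 (adjusted p = 3.86e-09) and differed by -0.04 ± 0.06 in HCC827 (adjusted p = 0.581), with an interaction of 0.83 ± 0.08 (adjusted p = 4.89e-07). Both of its probe sets were called higher in PC9 and neither in HCC827.

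LAMC3, a gamma chain with a restricted distribution, gave signals of 9.9, 8.8 and 6.6 in PC9 DMSO, 11, 8.1 and 12.3 in PC9 erlotinib, 12, 15.8 and 17.9 in HCC827 DMSO and 24.5, 30.6 and 28.0 in HCC827 erlotinib. It was under the table median on every PC9 array, and the treated HCC827 arrays stood above the untreated ones. LAMC3 rose by 0.62 ± 0.14 in HCC827 (adjusted p = 0.00139), a call lost with the actin ratio as a covariate (0.58, adjusted p = 0.0561) and without HCC827 erlotinib replicates 2 and 3 (0.49, adjusted p = 0.0828). The change in PC9 was 0.17 ± 0.14 (adjusted p = 0.31) and the interaction -0.46 ± 0.20 (adjusted p = 0.0703). The interaction of LAMC3 was called with 32 in place of 8 (-0.27, adjusted p = 0.0277), median centring (-0.53, adjusted p = 0.0451), untrended variances (-0.46, adjusted p = 0.0458) and without PC9 DMSO replicate 3 (-0.54, adjusted p = 0.0467).

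The other laminin chains changed little. LAMA5, an alpha chain of adult epithelial basement membranes, rose by 0.39 ± 0.10 in PC9 (adjusted p = 0.00278), from 170 to 223 up to 235 to 262, and its change in HCC827 was 0.19 ± 0.10 (adjusted p = 0.129). LAMA2, the alpha chain of muscle laminin, rose by 0.44 ± 0.12 in PC9 (adjusted p = 0.00409), but from 4.5 to 5.6 up to 8.9 to 10.2, all below the table median, and the call was lost with median centring (0.29). In HCC827, where LAMA2 was brighter at 33.2 to 50.3 over both treatments, its change was -0.20 ± 0.12 (adjusted p = 0.17). LAMB3, a chain of the laminin that anchors epithelia through hemidesmosomes, fell by 0.30 ± 0.11 in PC9 (adjusted p = 0.0207) with arrays that overlapped, and this call was lost without any 1 of 4 PC9 arrays (-0.24 to -0.28). LAMA4 and LAMB1 were not called in either line, with changes from -0.08 to 0.06. In PC9 LAMA4 was called lower with the mean of its probe sets (-0.20, adjusted p = 0.0482), and 1 of its 4 probe sets that passed was called lower (-0.56 ± 0.15, adjusted p = 0.00373).

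Before the drug, the lines already differed in most of these genes. Of the 24 members, 20 were called between PC9 DMSO and HCC827 DMSO, 6 higher and 14 lower in PC9, which is 83.3% against 76.2% of all genes tested (36.8% higher and 39.4% lower). The arrays of the untreated lines did not overlap for 20 members and for 78.6% of all genes. LAMA4, an alpha chain known from vessel walls and mesenchyme, gave signals of 912, 831 and 906 in PC9 DMSO and 5.1, 3.9 and 7.5 in HCC827 DMSO. LAMA4 passed the filter through the PC9 groups alone, ITGA1 through PC9 DMSO alone, and LAMA2, LAMC3, ITGA4 and ITGA7 through HCC827 groups alone. For these genes the filter itself thus favours a difference between the lines. The call of ITGA1 (0.34 ± 0.15, limma adjusted p = 0.0458) was lost in 4 settings and without any 1 of 8 arrays. LAMA4 was bright on every PC9 array and under the table median on every HCC827 array, a difference of 6.05 ± 0.10 (adjusted p = 1.23e-17), and in PC9 erlotinib it was 793 to 863. Of 8 endothelial markers, 3 stood above the table median in PC9, PECAM1, CDH5 and ESAM, with a summed signal of 984 to 1087 in DMSO and 702 to 752 in erlotinib, and in HCC827 the sum was 21 to 24 and 24 to 33. PECAM1 alone, at 783 to 879 in PC9 DMSO and 477 to 522 in PC9 erlotinib, made up most of the PC9 sums. The markers other than these 3 stood below the table median in PC9. The part of endothelial markers in the LAMA4 level was not tested.

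ITGB5 was also higher in untreated PC9, by 1.16 ± 0.11 (adjusted p = 8.01e-08). In the other direction LAMA2 differed by -2.06 ± 0.12, ITGA4 by -2.02 ± 0.13, ITGB2 by -1.90 ± 0.11, ITGAV by -1.30 ± 0.06 and ITGA7 by -1.05 ± 0.16, with limma's adjusted p of 1.58e-05 or lower. ITGA6, ITGB3, ITGB4 and ITGAM, each of which was called for the drug in at least 1 line, were the 4 members not called between the untreated lines. With the mean of its probe sets ITGA6 was called higher in PC9 (0.49), as ITGB4 was with quantile normalization (0.28).

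**Figure D4:**
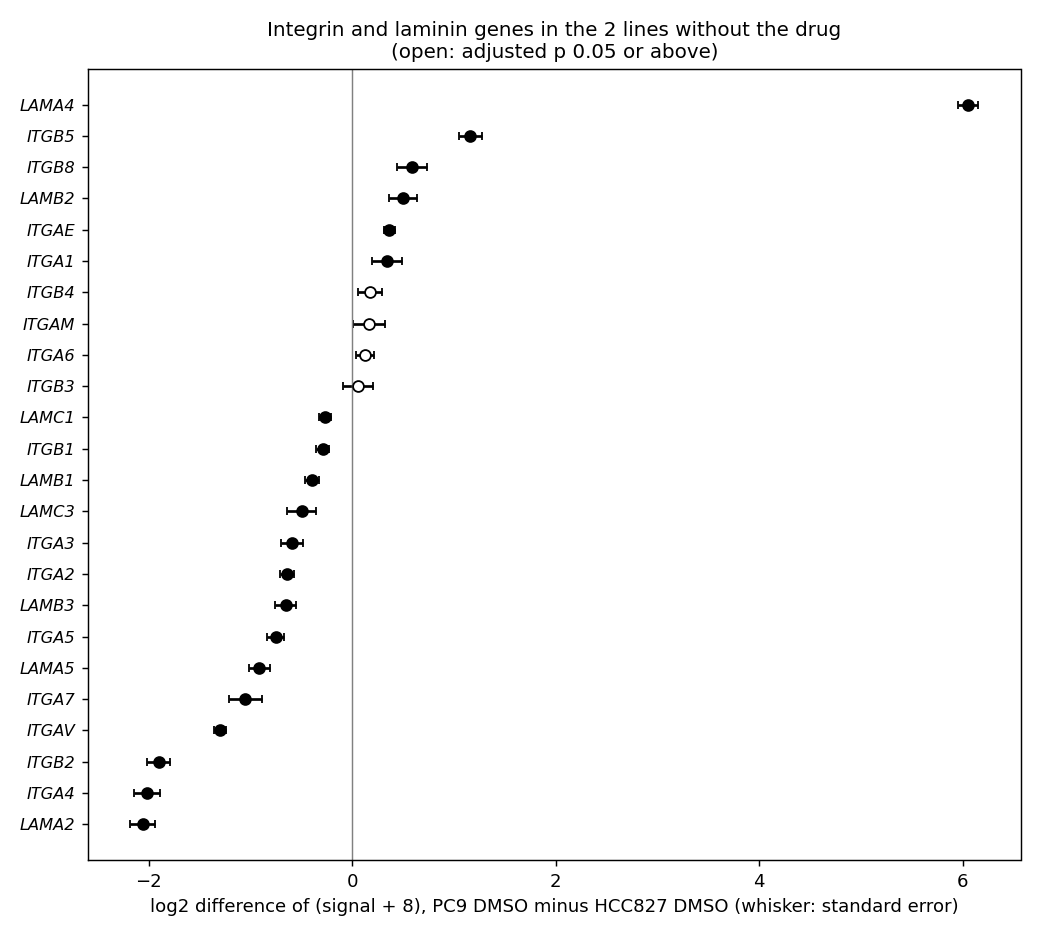
Log2 difference of (signal + 8) between untreated PC9 and untreated HCC827 for the 24 tested integrin and laminin genes, in order, with standard errors and open symbols for the 4 genes not called. LAMA4, at 6.05, stands far right of all others, and LAMA2, ITGA4 and ITGB2 lie farthest left.

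The drug's effect differed between the lines by the interaction test for 14 of the 24 members, 58.3% against 45.2% of all genes tested. These were ITGA2, ITGA3, ITGA4, ITGA6, ITGAM, ITGAV, ITGB2, ITGB3, ITGB4, ITGB5, ITGB8, LAMA2, LAMB2 and LAMC1. ITGA4 and ITGAM had the largest interactions, followed by ITGB4, ITGA6 and ITGB3, each over 1 on the log2 scale. ITGA4 and ITGAM each passed the filter through 1 group alone, so for both the filter itself favours an interaction.

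Genes for the basement membrane outside the laminins rose more often than they fell in both lines, as did all genes tested. Of all genes tested, 36.4% were called higher and 28.3% lower in PC9, and 32.3% and 19.5% in HCC827. Of 16 tested genes for basement membrane partners of laminin (collagen IV chains, nidogens, perlecan and others), 14 rose and 0 fell in PC9, with a median change of 0.69 beside 0.05 over all genes, and 12 rose and 1 fell in HCC827, with a median of 1.20 beside 0.07. The collagen IV chain COL4A4 rose by 4.28 ± 0.13 in PC9 and by 2.18 ± 0.13 in HCC827, and in PC9 COL4A3 rose by 3.12 ± 0.14 and COL4A5 by 1.65 ± 0.10. In HCC827 PXDN, the peroxidase that crosslinks collagen IV, rose by 3.01 ± 0.08 and the fibulin FBLN1 by 1.97 ± 0.10. COL4A3 also rose in HCC827, by 1.32 ± 0.14, where COL4A5 was not called. FBLN1 and PXDN also rose in PC9, by 0.53 ± 0.10 and 0.27 ± 0.08. Of 8 fibroblast markers, 2, COL1A1 and LUM, passed the filter, and their list's summed signal went from 84 to 123 up to 389 to 474 in PC9 and from 166 to 189 up to 637 to 702 in HCC827, a measure whose part in these rises was not tested.

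Of 21 tested integrin ligands outside the laminins, 15 rose and 1 fell in PC9 (median 0.63), and 13 rose and 2 fell in HCC827 (median 0.50). Beside these counts, 36.4% of all genes tested were called higher and 28.3% lower in PC9, and 32.3% and 19.5% in HCC827. ICAM1, the ligand of the ITGB2 integrins, rose by 3.75 ± 0.09 in PC9 and by 0.64 ± 0.09 in HCC827. The matricellular protein CCN2 rose by 3.38 ± 0.24 and by 1.46 ± 0.24 in PC9 and HCC827, and the microfibril protein FBN1 by 3.27 ± 0.11 and by 2.39 ± 0.11. TNC, the tenascin that ITGA9 and ITGAV receptors bind, fell by 1.86 ± 0.07 in HCC827.

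Inside the cell, 17 of 31 tested adaptors and activators of integrins rose and 6 fell in PC9 (median 0.30). In HCC827 11 rose and 5 fell (median 0.07, as over all genes). Of all genes tested, 36.4% were called higher and 28.3% lower in PC9. The shares in HCC827 were 32.3% and 19.5%, and the adaptor counts there stood near them. NEDD9, a scaffold of the CAS family downstream of integrins, rose by 3.45 ± 0.08 in PC9 and by 2.43 ± 0.08 in HCC827. KANK1, which binds talin at the rim of adhesions, rose by 2.09 ± 0.10 in PC9, and FERMT1, the kindlin of epithelia that activates integrins, fell by 2.03 ± 0.06 there. In HCC827 the tensin TNS4 fell by 1.23 ± 0.12 and the talin TLN2 rose by 0.98 ± 0.11. FERMT1 also fell in HCC827, by 0.83 ± 0.06, and TNS4 also fell in PC9, by 1.29 ± 0.12. KANK1 was not called in HCC827, nor TLN2 in PC9.

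Of 4 tested hemidesmosome genes other than integrins, 1 rose and 1 fell in PC9 (median 0.13), DST, the plaque protein that links to keratin, by 0.79 ± 0.05, and KRT5, a basal keratin, which fell by 1.49 ± 0.14. In HCC827 2 rose, the tetraspanin CD151 by 0.55 ± 0.09 and DST by 0.19 ± 0.05 (median 0.16). Of 5 tested genes listed for laminin receptors outside the integrins and for complexes of these receptors, 3 rose and 2 fell in PC9 (median 0.27). In HCC827 4 rose and 0 fell by limma (median 0.38). They include SGCB and SGCE, which are sarcoglycans and not receptors themselves. The list held 10 genes, and the others, DAG1 and RPSA among them, had no probe set under their symbol alone. BCAM, the Lutheran antigen that binds LAMA5, rose by 1.03 ± 0.12 in PC9 and by 0.92 ± 0.12 in HCC827. The sarcoglycan SGCB rose by 0.74 ± 0.14 and by 0.38 ± 0.14, and SGCE by 0.27 ± 0.08 and by 0.41 ± 0.08. The syndecan SDC4 fell by 0.40 ± 0.07 in PC9. Of 9 tested tetraspanins and surface partners, 4 rose and 1 fell in PC9 (median 0.09), with the tetraspanin CD82 at 1.58 ± 0.20, CD47 at 0.61 ± 0.07 and SLC3A2, the heavy chain that binds beta tails, at 0.58 ± 0.08. In HCC827 3 rose and 1 fell (median 0.10), with SLC3A2 at 0.84 ± 0.08, CD81 at 0.55 ± 0.07 and the caveolin CAV1 at -0.37 ± 0.06. The counts of these short lists stand beside 36.4% higher and 28.3% lower of all genes tested in PC9, and 32.3% and 19.5% in HCC827. The limma adjusted p of the partner genes named with values was 0.0354 or lower.

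**Figure D5:**
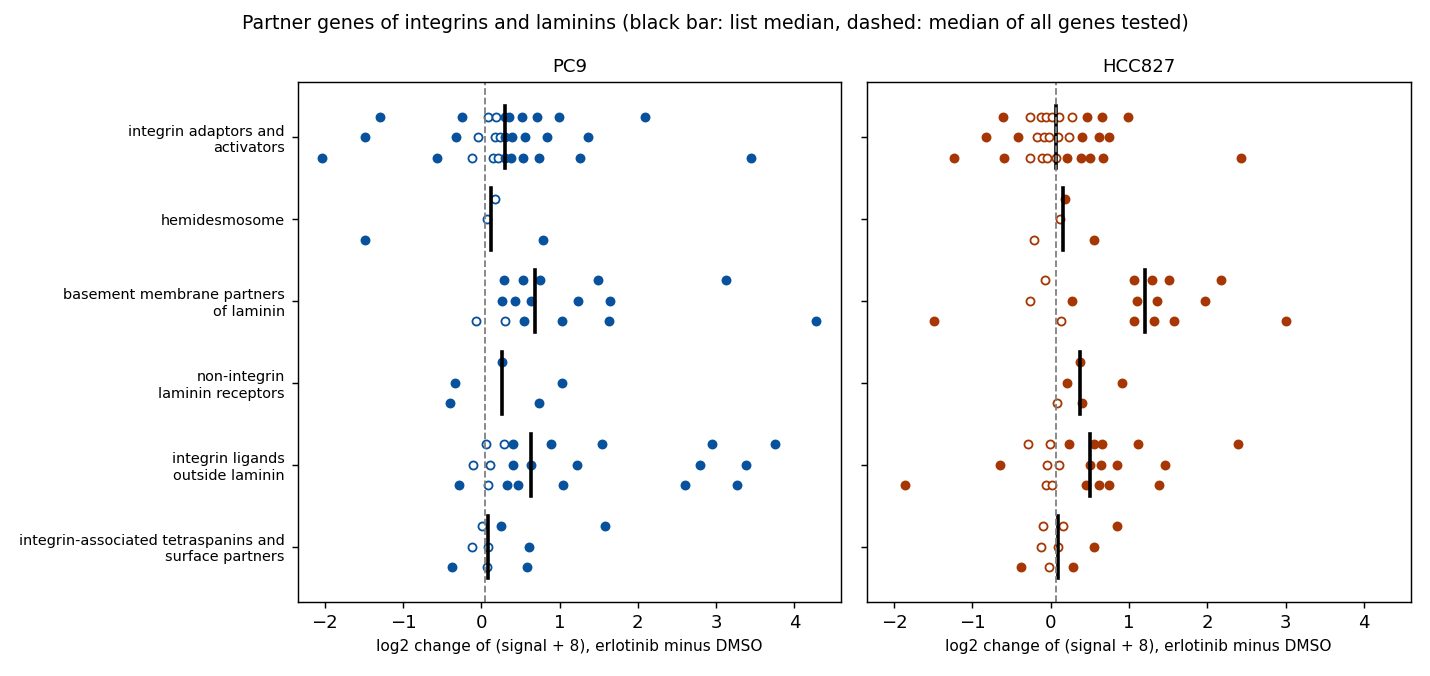
Log2 change of (signal + 8) in erlotinib against DMSO for each tested gene of 6 lists of integrin and laminin partners in PC9 (left) and HCC827 (right), with the list median as a black bar, the median of all genes tested as a dashed line and open symbols for genes not called. The medians of the basement membrane list, 0.69 and 1.20, and of the ligand list, 0.63 and 0.50, lie to the right of the dashed line in both lines.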

How the data were processed

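Per the labels' protocols, RNeasy Plus RNA was amplified and biotinylated with NuGEN Ovation reagents. The authors deposited a table with a linear intensity for each probe set on each array, made with MAS5 per the submitters' processing notes, with the version not given in the sources used here. The table has 54675 probe sets without detection calls.

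Probe sets with 1 gene symbol were kept, the brightest per gene over all arrays was taken, and genes whose highest group mean reached the table median of 13 were tested, 13165 in all. Values were log2(signal + 8), fitted over all 12 arrays with limma 3.58.1 in R 4.3.3 with a trend in the variance, and p-values were adjusted by Benjamini-Hochberg over all genes tested. Contrasts were erlotinib against DMSO in each line, their difference (the interaction, PC9 minus HCC827) and the untreated lines. The fits were tested on simulated data.

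Members called with a change of at least 1.5-fold in a line were given array by array, others by range. Up to 3 called genes per list and line, those with the largest changes, were named. The members, lists and tests were chosen with earlier results of these data known. The GC box was chosen after the promoter windows had been seen. Replicate numbers did not pair the samples: deviations of same-numbered arrays correlated with r from -0.26 to 0.13. Alternatives were a constant of 1 or 32, normalization by quantiles or by centring on the median, omission of the filter or its rise to the 70th percentile, averaging or singly testing the probe sets, untrended variances, fits on 1 line, a block for replicate number, a null of 1.5-fold, the actin ratio as covariate, and fits without some arrays.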

Additional observations from a re-analysis of the deposited data

Results flagged for a closer look

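For 14 of the 24 tested members the effect of erlotinib differed between PC9 and HCC827 by the interaction term of the limma fit, given here as the PC9 change minus the HCC827 change on the log2 scale. It was above 0 for ITGA4 (2.32), ITGAM (1.91), ITGB3 (1.05), LAMB2 (0.85), ITGAV (0.83), LAMC1 (0.83), LAMA2 (0.64) and ITGB2 (0.52). For ITGAM, ITGAV, ITGB3, LAMB2, LAMC1, LAMA2 and ITGB2 this came with a rise called in PC9, and for ITGA4 with a fall called in HCC827. It was below 0 for ITGB4 (-1.09), ITGA6 (-1.06), ITGB5 (-0.82), ITGB8 (-0.72), ITGA3 (-0.40) and ITGA2 (-0.31). ITGA2, ITGA3 and ITGA6 fell in both lines and ITGB8 rose in both, whereas ITGB4 and ITGB5 fell in PC9 and rose in HCC827. Averaged over a gene's probe sets, the interaction was 0.73 for ITGA4, 0.74 for ITGAM, 0.33 for ITGB3 and -0.38 for ITGB4, each still called. In that setting it was not called for ITGB2 (0.32), ITGB8 (-0.25) and ITGA2 (-0.23). The ITGB2 interaction was also not called with quantile normalization (0.38) or the actin ratio as a covariate (0.54). Without HCC827 erlotinib replicates 2 and 3 it was 0.52. The ITGA3 interaction was lost in 6 settings and without any 1 of 8 arrays. For ITGA4 and ITGAM, which passed the filter through 1 group alone, the filter itself favours an interaction.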

How the results depend on the processing

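Of 28 calls of a drug effect in a line, 18 were kept under every other setting that gave a value, apart from the test against 1.5-fold, and under all 12 fits that left out 1 array. There were 13 such settings, and 12 for the calls of ITGAM in PC9, ITGB3 in both lines and ITGA4 in HCC827, which the 70th percentile filter left out. The main counts were 9 higher and 8 lower in PC9, 6 higher and 5 lower in HCC827, 14 by interaction and 20 between the untreated lines. Tested against 1.5-fold, ITGAM, ITGAV, ITGB3, ITGB8, LAMB2 and LAMC1 were higher and 3 members were lower in PC9. In that test 1 was higher and 2 were lower in HCC827, 5 passed for the interaction and 8 between the untreated lines. Of all 13165 genes, 2202 passed it in PC9 and 1076 in HCC827. With the actin ratio as a covariate 2 were higher in HCC827, as were 2 without HCC827 erlotinib replicates 2 and 3, where the 1 array left is taken to vary as the other groups do. Over all genes tested, calls in HCC827 numbered 6818 in the main fit and 4152 with the actin covariate. With the filter at the 70th percentile 3 members were lower in HCC827. Leaving out 1 array gave 9 to 9 higher and 6 to 9 lower in PC9, 4 to 7 higher and 4 to 5 lower in HCC827, 13 to 14 by interaction and 19 to 21 between the lines. The replicate block, although the numbers do not pair the samples, gave 9 and 8 in PC9, 6 and 4 in HCC827, 13 and 19. Median centring moved the median of all genes in PC9 from 0.05 to -0.10.

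Signs turned for 2 calls, the HCC827 rises of ITGB4 (0.44) and ITGB5 (0.33), and otherwise for values that were not called. In PC9 these were ITGA4 (-0.04) and LAMB1 (-0.09) with centring, and ITGB1 with quantile normalization and with the mean of probe sets (0.06 each) and without 1 array (-0.06 to 0.06). In HCC827 they were ITGB4 (-0.0025) and LAMA4 (0.028) with the mean of probe sets, LAMA5 (-0.06) with the actin covariate, ITGB5 (-0.015) without HCC827 erlotinib replicates 2 and 3, and without 1 array ITGA7 (-0.22 to 0.027), ITGB1 (-0.08 to 0.023), LAMA4 (-0.14 to 0.05) and LAMC1 (-0.06 to 0.0046). Between the untreated lines they were ITGA6 with quantile normalization (-0.13), and ITGB3 with the mean of probe sets (-0.09) and without 1 array (-0.05 to 0.15). The cause was not tested. Signals near the table median of 13 limit ITGA1, ITGA7, LAMA2 in PC9 and LAMC3.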

Other observations

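Some partner genes of the integrins and laminins were called in opposite directions in the lines, and those given here were chosen after their values were seen. COL4A6, a collagen IV chain, rose by 1.23 ± 0.10 in PC9 and fell by 1.49 ± 0.10 in HCC827, with an interaction of 2.72 ± 0.14 (limma, adjusted p = 4.46e-10). PARVB, a parvin that links integrins to actin, fell by 1.49 ± 0.10 in PC9 and rose by 0.66 ± 0.10 in HCC827, with an interaction of -2.15 ± 0.14 (adjusted p = 4.55e-09). TNC rose by 0.32 in PC9 and fell by 1.86 in HCC827. The cytokine TGFB1, which ITGAV integrins release from its latent form, rose by 0.47 ± 0.14 and fell by 0.64 ± 0.14, the kinase PTK2B rose by 0.56 ± 0.14 and fell by 0.61 ± 0.14, and the actin crosslinker ACTN4 rose by 0.31 ± 0.07 and fell by 0.59 ± 0.07. In the other direction the scaffold GIT1 fell by 0.25 ± 0.08 and rose by 0.47 ± 0.08, and SDC4 fell by 0.40 ± 0.07 and rose by 0.21 ± 0.07. With ITGB4 and ITGB5 these are the integrin and laminin genes and listed partners called in opposite directions, and 5.39% of all genes tested were. Others, such as LAMA2, ITGB2 and COL7A1, had opposite signs with a call in PC9 alone.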
